A study of Oryza sativa with 12 samples.

Results

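The comparison set culms of rice labelled as lacking both TAC4L and TAC4 (TAC4L/TAC4-KO) against culms labelled as lacking TAC4 alone (TAC4-KO), so that the lines differ, by their labels, in TAC4L. It was made across the 19184 of 55986 genes whose level averaged at least 1 FPKM (fragments scaled to gene length and library size) over the 12 libraries of the series. Each group held 3 libraries, 6 in all, and the remaining 6 came from culms labelled TAC4L-KO and from wild type (WT). All 4 groups were japonica rice of the cultivar Zhonghua 11, sampled at the heading stage, when the panicle emerges from the leaf sheath. The titles call the lines knockouts and the genotype field calls them knockdowns of TAC4 (LOC_Os02g25230) and TAC4L (LOC_Os04g19140). The sources used here do not say how the lines were made, whether a line stands for 1 or more transformants, or at what hour culms were cut. Nothing states that the 3 libraries of a group came from separate plants, so p-values measure the spread between these libraries, which may be technical.

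The culm is the jointed stem that holds up the panicle. Its strength comes from the secondary cell wall, a thick layer of cellulose, xylan and lignin laid down inside the primary wall once a cell has stopped growing. A trio of cellulose synthases builds the cellulose of that layer, NAC and MYB transcription factors switch its genes on, and rice mutants with too little of it have culms that snap. Before and around heading the culm also stores starch, which is later moved to the grain. TAC4 is known for its role in shoot gravitropism and tiller angle, through auxin. The series title names brittle culms of the double mutant, and culm strength itself was not analysed here.

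The targeted transcripts did not separate the 2 groups. TAC4 stood at 16.5, 15.3 and 13.2 FPKM in TAC4L/TAC4-KO culms, against 13.5, 9.13 and 11.5 FPKM in TAC4-KO culms, and the groups overlapped (log2 change 0.38, SE 0.19, limma adjusted p = 0.21; exact two-sided permutation p = 0.2, where 0.1 is the smallest that 3 against 3 libraries allow). TAC4L stood at 0.527, 0.376 and 0.395 FPKM in TAC4L/TAC4-KO culms, against 0.337, 0.515 and 0.282 FPKM in TAC4-KO culms, below the level limit (exact two-sided permutation p = 0.5). WT averaged 5.89 FPKM of TAC4, so the libraries labelled TAC4-KO held more of this transcript than WT libraries, which goes against the word knockdown. An FPKM value summed over a gene cannot reveal a small edit in its transcript. The labels were therefore not checked by either gene, and every direction below is one between libraries as labelled.

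The 6 libraries differed 1.64-fold in relative depth and listed 24717 to 26291 genes above 0, with 7.09% to 10.7% of all FPKM in their 10 highest genes. Values correlated across genes at 0.968 to 0.975 within TAC4L/TAC4-KO, at 0.955 to 0.97 within TAC4-KO, and at 0.881 to 0.948 between a library of one group and a library of the other. Of 11 genes that mark floral tissue, 10 averaged under 1 FPKM in both groups, and the exception was MADS16.

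Of the 19184 genes, 2883 (15.0%) passed an adjusted p under 0.05 in TAC4L/TAC4-KO culms against TAC4-KO culms. The calls were 937 higher (4.88%) and 1946 lower (10.1%), and with a fold of at least 2 they were 452 higher and 1281 lower (9.03% together). The split depends on the scaling between libraries. Lower genes made up 67.5% of calls on the deposited values, 51.2% under median-of-ratios scaling (1453 higher, 1526 lower) and 48.4% under quantile normalization (1461 higher, 1373 lower). All tested genes had a median log2 change of -0.12 on the deposited values and 0.03 under quantile normalization. The groups did not overlap in 41.4% of tested genes, with TAC4L/TAC4-KO above in 14.7% and below in 26.6%. Most calls were shared between scalings: 2462 genes were called in the same direction under median-of-ratios scaling, which is 85.4% of the calls here and 82.6% of the calls there. Under quantile normalization 2271 were shared, or 78.8% and 80.1%. The number of calls was 1441 without TAC4L/TAC4-KO replicate 3, 1479 without TAC4-KO replicate 1 and 1918 without TAC4L/TAC4-KO replicate 1. Higher calls also numbered 605 without TAC4-KO replicate 2.

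The balance of higher and lower calls is given by expression level as a description, with no test. Among 1124 genes that averaged at least 100 FPKM over the 6 libraries, 18.4% were called higher and 8.9% lower. Among 5988 genes between 1 and 5 FPKM, 2.84% were called higher and 8.88% lower. In the upper class the higher calls outnumbered the lower ones under both other scalings too (22.8% against 5.96% under median-of-ratios scaling, 15.7% against 9.07% under quantile normalization). In the low class the split was 4.31% higher and 7.25% lower under median-of-ratios scaling, and it turned to 5.95% higher and 5.64% lower under quantile normalization. The calls were spread over all 12 chromosomes, with 8.43% to 12.5% of a chromosome's genes lower and 4.19% to 5.76% higher. In 27 genes called lower the level averaged under 1 FPKM in TAC4L/TAC4-KO culms and at least 10 FPKM in TAC4-KO culms. In 6 genes called higher it was the other way round.

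Gene names are not paired with loci in the table. They were assigned from published rice nomenclature for 36 lists of genes, and a symbol is printed only where a rice reference placed it at the matching chromosomal place, otherwise the family and the locus are given. Of 317 tested list genes, 100 (31.5%) were called, 28 higher and 72 lower. Over all tested genes 15.0% were called, 4.88% higher and 10.1% lower, and the count of each list below stands beside these shares. The lists were chosen with earlier results of these data known, so large shares were favoured and are description only. The share called also rose with expression level, and all tested genes are not matched to the lists for level. Of these calls, 52 held under each of the 15 alternative settings that tested the gene, and none of the 100 changed sign in any of those. Of the 100 genes, 19 were not tested with the filter of 5 FPKM and 2 with that of 1 FPKM over the 6 libraries. Below, a call that held under the 15 alternatives is one that held wherever its gene was tested. The count was 62 without TAC4-KO replicate 1 and 56 without TAC4L/TAC4-KO replicate 3. In bulk tissue, fewer cells of a type and less RNA per cell cannot be told apart, here or in any result below.

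**Figure D1:**
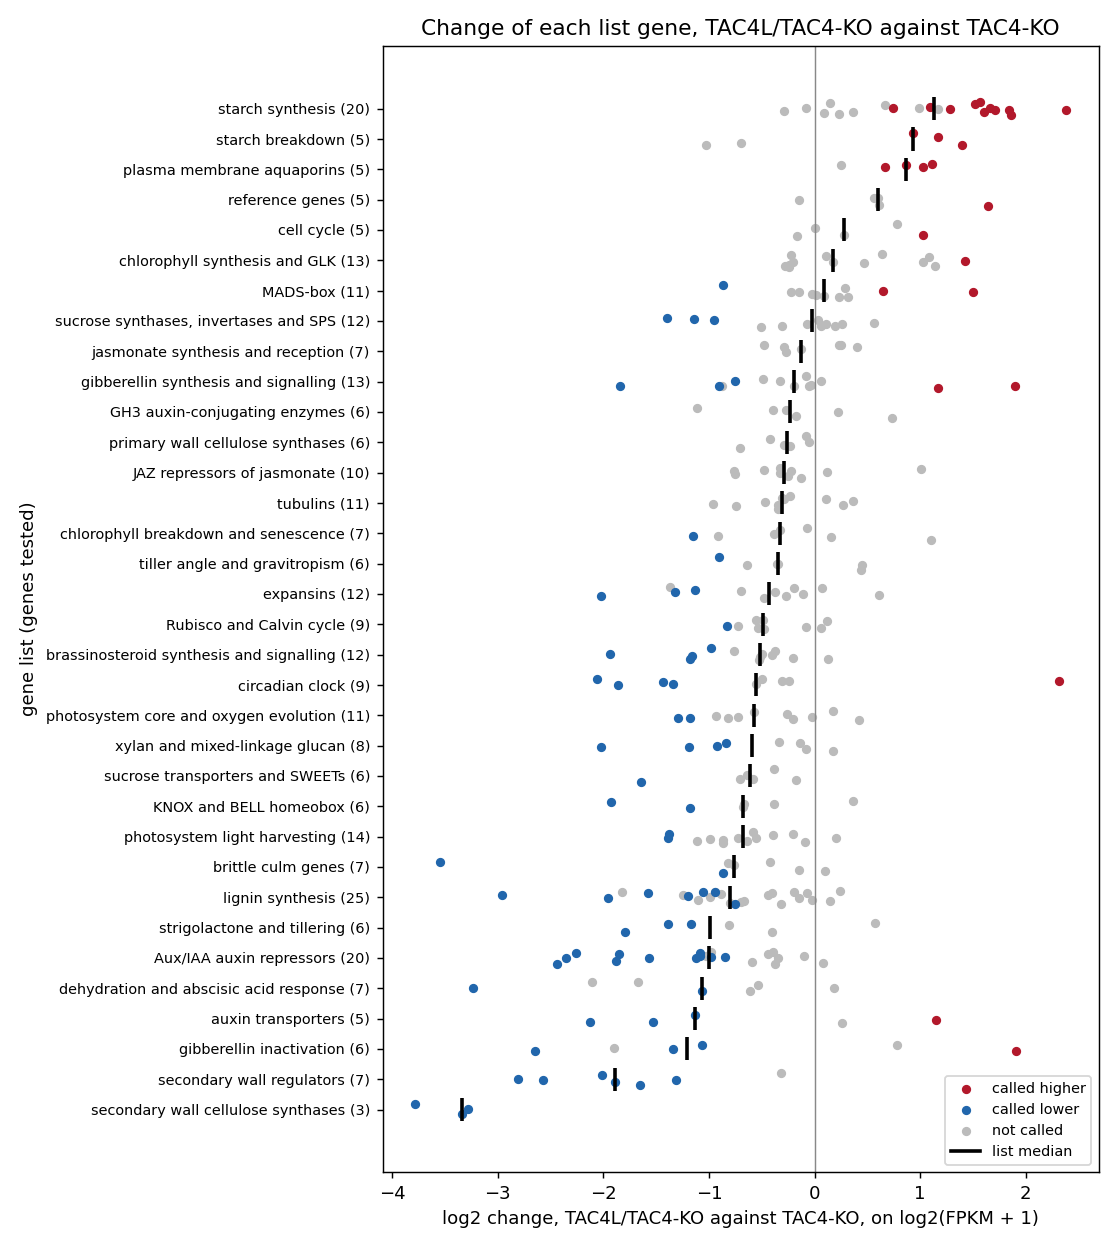
Log2 change on log2(FPKM + 1) in TAC4L/TAC4-KO against TAC4-KO culms (x axis) of each tested gene on the lists with at least 3 tested genes (y axis, number tested in parentheses). Each point is a gene, coloured by its call, and the black line is the list median, from -3.34 for the secondary wall cellulose synthases to 1.13 for starch synthesis, against -0.12 over all tested genes.

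The 3 cellulose synthases of the secondary wall fell together in TAC4L/TAC4-KO culms, with the most negative median of any list. CESA4 (LOC_Os01g54620) stood at 30.4, 37.1 and 15.8 FPKM in TAC4L/TAC4-KO culms, against 487, 168 and 224 FPKM in TAC4-KO culms (log2 change -3.28, SE 0.4, limma adjusted p = 0.00064). CESA7 (LOC_Os10g32980) stood at 17.8, 19.1 and 8.26 FPKM in TAC4L/TAC4-KO culms, against 382, 146 and 159 FPKM in TAC4-KO culms (-3.78, SE 0.4, limma adjusted p = 0.00028). CESA9 (LOC_Os09g25490) stood at 34.2, 36.6 and 14 FPKM in TAC4L/TAC4-KO culms, against 506, 187 and 214 FPKM in TAC4-KO culms (-3.34, SE 0.43, limma adjusted p = 0.00077). For each gene the groups were far apart, replicate 1 was the highest TAC4-KO library and replicate 3 the lowest TAC4L/TAC4-KO library. On the FPKM scale the TAC4-KO mean was 10.5 times the TAC4L/TAC4-KO mean for CESA4, 15.2 times for CESA7 and 10.7 times for CESA9. All 3 calls held under the 15 alternatives.

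The TAC4-KO culms themselves did not differ detectably from WT in these genes. WT averaged 260.4 ± 73.1 FPKM for CESA4, 282 ± 76.2 for CESA7 and 286 ± 76.2 for CESA9 (SD, n = 3). The log2 changes of TAC4-KO against WT were 0.06, -0.41 and -0.03, and none was called, in a comparison that called 34.9% of all genes (18.4% higher, 16.5% lower) and shares the TAC4-KO libraries with this one. The 6 cellulose synthases of the primary wall, which serve growing cells, were not called in TAC4L/TAC4-KO culms either by limma at the adjusted threshold, with 1 lower at an unadjusted p under 0.05 (CESA2, log2 change -0.42, limma adjusted p = 0.14). Their log2 changes were -0.71 for CESA5, -0.29 for CESA1, -0.23 for CESA3, -0.08 for CESA6 and -0.05 for CESA8, and the last 2 turned positive under median-of-ratios scaling (0.06 and 0.1). CESA1, at 146, 439 and 213 FPKM in TAC4L/TAC4-KO culms and 381, 178 and 368 FPKM in TAC4-KO culms, shows how widely some of them varied between libraries of a group. CESA2 varied less, at 20.3, 20 and 22.5 FPKM in TAC4L/TAC4-KO culms and 31.7, 28.5 and 25.1 FPKM in TAC4-KO culms, without overlap.

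**Figure D2:**
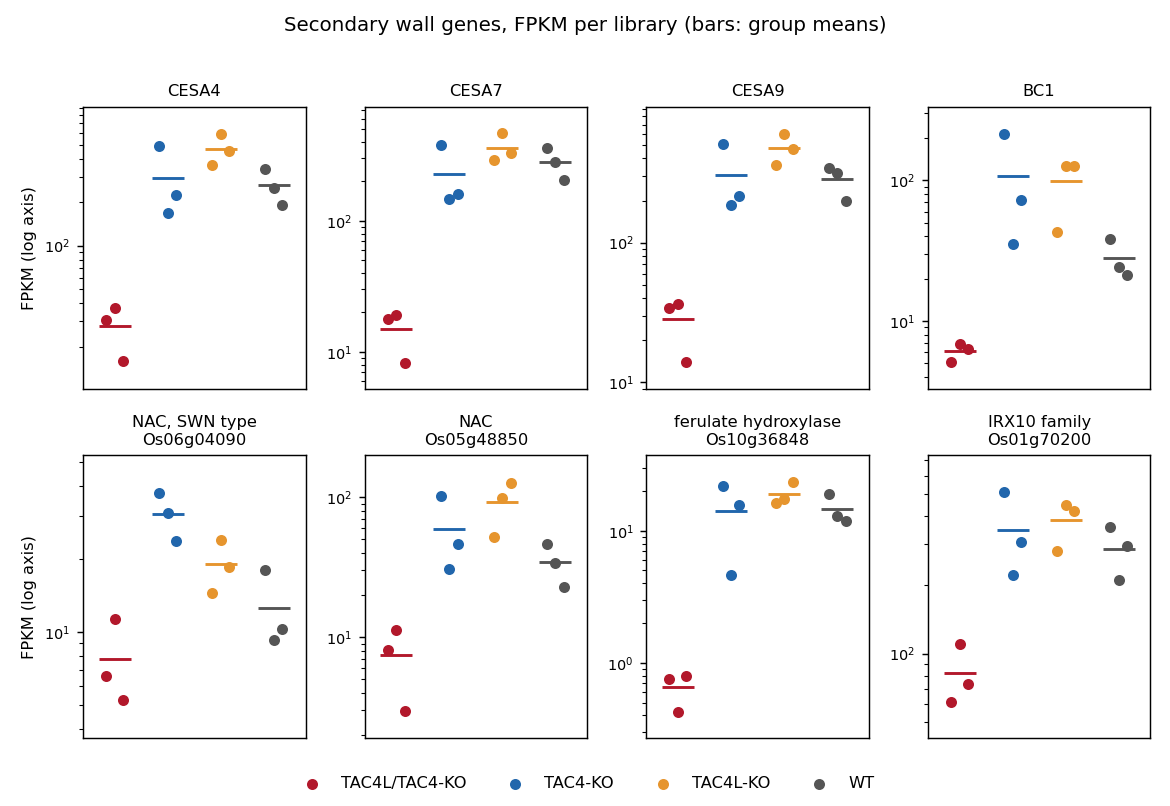
FPKM (log axis) of 8 secondary wall genes in each library, with TAC4L/TAC4-KO left of TAC4-KO and TAC4L-KO left of WT, and bars at group means. In all 8 panels the 3 TAC4L/TAC4-KO libraries lie below the 3 libraries of every other group, except that 1 of them, at 11.3 FPKM, lies among the WT libraries for the NAC gene Os06g04090.

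BC1 (LOC_Os03g30250), a COBRA-like protein of the cell surface whose loss makes rice culms brittle, fell with them. It stood at 5.13, 6.87 and 6.35 FPKM in TAC4L/TAC4-KO culms, against 214, 35.1 and 73 FPKM in TAC4-KO culms (log2 change -3.55, SE 0.57, limma adjusted p = 0.0022). The TAC4-KO libraries varied widely among themselves, and the change was -2.87 without TAC4-KO replicate 1 and -4.16 without replicate 2. The other brittle culm genes had smaller log2 changes. The glycosyltransferase-like gene LOC_Os05g07790 stood at 4.88, 6.84 and 5.88 FPKM in TAC4L/TAC4-KO culms, against 15.2, 7.37 and 13.3 FPKM in TAC4-KO culms (-0.87, SE 0.26, limma adjusted p = 0.042). With either other scaling it was not called, nor without any single library except TAC4-KO replicate 2 (-0.68 to -0.97 in those 5 cases). That made 2 of 7 lower, against 10.1% lower over all tested genes. BC12, a kinesin motor protein, and GLU1, an endoglucanase of the cell membrane, had log2 changes of -0.76 and 0.1 that did not pass (limma adjusted p = 0.11 and 0.83), and neither did the dynamin-related gene LOC_Os02g50550 (-0.42), the nucleotide sugar transporter gene LOC_Os02g40030 (-0.15) or the chitinase-like gene LOC_Os09g32080 (-0.82). In TAC4-KO against WT culms 4 of the 7 were called higher, among them BC1 (1.57) and LOC_Os05g07790 (0.89), and 1 lower. For LOC_Os05g07790 the mean was 5.8 FPKM in WT and 5.87 FPKM in TAC4L/TAC4-KO culms.

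Transcription factors listed as regulators of the secondary wall were lower as well, with 6 of 7 tested genes called and a list median of -1.89. The NAC gene LOC_Os05g48850 stood at 8.08, 11.2 and 2.98 FPKM in TAC4L/TAC4-KO culms, against 102, 30.7 and 46.2 FPKM in TAC4-KO culms (log2 change -2.81, SE 0.51, limma adjusted p = 0.004). The MYB gene LOC_Os04g50770, of the type that activates lignin genes, stood at 1.81, 1.36 and 0.316 FPKM in TAC4L/TAC4-KO culms, against 12.2, 9.23 and 12.6 FPKM in TAC4-KO culms (-2.57, SE 0.42, limma adjusted p = 0.0026). For both genes the groups were again apart. The NAC gene LOC_Os06g04090, of the SWN type that heads this cascade, stood at 6.6, 11.3 and 5.24 FPKM in TAC4L/TAC4-KO culms, against 37.2, 30.8 and 23.7 FPKM in TAC4-KO culms (-1.89, SE 0.31, limma adjusted p = 0.0025). Its partner LOC_Os08g02300 changed by -1.31 (SE 0.28, limma adjusted p = 0.0092). The MYB gene LOC_Os08g05520 fell by 2.01 and the homeobox gene LOC_Os03g03164 by 1.65 on the log2 scale (limma adjusted p = 0.015 and 0.012). The first lost its call without TAC4-KO replicate 1 (-1.46) or TAC4L/TAC4-KO replicate 3 (-2), and the second without TAC4-KO replicate 1 (-1.46), TAC4L/TAC4-KO replicate 1 (-1.42) or replicate 3 (-1.48). The exception was the MYB gene LOC_Os01g18240, at 28.8, 24.8 and 19.3 FPKM in TAC4L/TAC4-KO culms and 45.4, 20.2 and 29.8 FPKM in TAC4-KO culms (-0.32, limma adjusted p = 0.5). In TAC4-KO against WT culms 2 of the 7 were themselves called higher and 0 lower, against 18.4% higher over all tested genes. They were LOC_Os06g04090 (1.26) and LOC_Os04g50770 (1.56), so their falls start from a level above WT.

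Genes for lignin and xylan, the other polymers of that wall, fell in part. Of 25 tested lignin genes 7 were lower, with a median of -0.8, and 23 of the 25 had a log2 change below 0. In TAC4-KO against WT culms 8 of the 25 were called higher and 2 lower, against 18.4% and 16.5% over all tested genes. The ferulate hydroxylase family gene LOC_Os10g36848, which acts toward syringyl lignin, stood at 0.76, 0.427 and 0.789 FPKM in TAC4L/TAC4-KO culms, against 21.8, 4.62 and 15.6 FPKM in TAC4-KO culms (log2 change -2.96, SE 0.41, limma adjusted p = 0.0012; -3.56 without TAC4-KO replicate 2). 4CL1, a ligase that activates the acids lignin is made from, stood at 1, 1.45 and 0.486 FPKM in TAC4L/TAC4-KO culms, against 7.9, 4.14 and 8.39 FPKM in TAC4-KO culms (-1.96, SE 0.27, limma adjusted p = 0.0012). CAD2, the dehydrogenase of the last step, stood at 49.8, 80.4 and 44.2 FPKM in TAC4L/TAC4-KO culms, against 191, 145 and 177 FPKM in TAC4-KO culms (-1.58, SE 0.3, limma adjusted p = 0.0054). Those 3 calls held under the 15 alternatives. The other 4, which include COMT1 (-1.06), 4CL4 (-1.2) and the phenylalanine ammonia-lyase gene LOC_Os02g41650 (-0.94), depended on single libraries: the count was 4 without TAC4-KO replicate 1 or 3 or TAC4L/TAC4-KO replicate 1, and 3 without TAC4L/TAC4-KO replicate 3. Without TAC4L/TAC4-KO replicate 2 the count of lower lignin genes rose to 10. COMT1 changed by -0.87 to -1.06, 4CL4 by -0.97 to -1.22 and the ammonia-lyase gene by -0.81 to -0.88 in the cases where they lost their calls.

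Xylan and mixed-linkage glucan synthesis had 8 tested genes, of which 4 were lower (median -0.59), with 2 lower by median-of-ratios scaling and 3 after quantile normalization. The xylan glycosyltransferase gene LOC_Os01g70200, of the IRX10 family, stood at 61.6, 110.4 and 73.8 FPKM in TAC4L/TAC4-KO culms, against 509, 221 and 306 FPKM in TAC4-KO culms (log2 change -2.02, SE 0.33, limma adjusted p = 0.0026). IRX9L, which extends the xylan backbone, changed by -1.19 (SE 0.24, limma adjusted p = 0.0068). Its libraries stood at 33.4, 32.3 and 24.4 FPKM in TAC4L/TAC4-KO culms, against 86.8, 53.5 and 70.8 FPKM in TAC4-KO culms. IRX14 and the glycosyltransferase gene LOC_Os02g22380 changed by -0.84 and -0.92 (limma adjusted p = 0.032 and 0.05), and 2 genes were lower without TAC4-KO replicate 1 or 3 or TAC4L/TAC4-KO replicate 1 or 3. IRX14 was not called under median-of-ratios scaling (-0.69), nor LOC_Os02g22380 under either other scaling (-0.78 and -0.85). With libraries left out, IRX14 changed by -0.62 to -0.91 and LOC_Os02g22380 by -0.69 to -1.04 where their calls were lost.

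Of 12 expansins, which loosen primary walls, 3 were lower (median -0.43, against 10.1% lower over all tested genes). The count was 1 under quantile normalization, where EXPA3 and EXPB4 were not called (-1 and -1.12), and 1 without TAC4-KO replicate 1 or 2 or TAC4L/TAC4-KO replicate 1 or 3. EXPA4 stood at 0.0478, 0 and 0.0477 FPKM in TAC4L/TAC4-KO culms, against 6.59, 2.89 and 1.5 FPKM in TAC4-KO culms (log2 change -2.02, SE 0.39, limma adjusted p = 0.006), and its call held throughout. EXPB4 and EXPA3 changed by -1.32 and -1.13 (limma adjusted p = 0.021 and 0.038). EXPB4 changed by -1.21 to -1.33 and EXPA3 by -0.99 to -1.27 where a left-out library ended the call. Of 11 tubulins limma called 0, with 1 lower at an unadjusted p under 0.05, and 1 passed the adjusted threshold under quantile normalization or without TAC4L/TAC4-KO replicate 2 (median -0.31). The smallest p belonged to the alpha-tubulin gene LOC_Os11g14220, at 2118, 2974 and 1938 FPKM in TAC4L/TAC4-KO culms and 4062, 3504 and 4001 FPKM in TAC4-KO culms (-0.74, limma adjusted p = 0.064).

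Starch synthesis genes rose in TAC4L/TAC4-KO culms in 11 cases and fell in none, with 13 higher and 0 lower by limma at an unadjusted p under 0.05. Of 20 tested genes of starch synthesis 11 were called, each of them higher, with a median of 1.13. The large subunit gene of ADP-glucose pyrophosphorylase LOC_Os05g50380, whose enzyme makes the glucose donor of starch, stood at 5963, 6302 and 6719 FPKM in TAC4L/TAC4-KO culms, against 1159, 618 and 2495 FPKM in TAC4-KO culms (log2 change 2.38, SE 0.48, limma adjusted p = 0.0068). The small subunit gene AGPS2 stood at 39.4, 43.9 and 46.1 FPKM in TAC4L/TAC4-KO culms, against 11.5, 11.6 and 19.7 FPKM in TAC4-KO culms (1.57, SE 0.24, limma adjusted p = 0.0018). TAC4-KO replicate 3 was the highest of its group for both and still lay below all TAC4L/TAC4-KO libraries.

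Genes for enzymes that build and shape the starch polymer were among the 11. BEI, which adds branches, stood at 345, 404 and 326 FPKM in TAC4L/TAC4-KO culms, against 86.7, 85.3 and 129 FPKM in TAC4-KO culms (log2 change 1.84, SE 0.23, limma adjusted p = 0.00061). The granule-bound starch synthase gene LOC_Os07g22930, which makes amylose in non-grain tissue, stood at 1479, 1998 and 1584 FPKM in TAC4L/TAC4-KO culms, against 441, 248 and 892 FPKM in TAC4-KO culms (1.86, SE 0.4, limma adjusted p = 0.0095). The isoamylase gene LOC_Os09g29404, which trims branches, changed by 1.6, and the starch synthase gene LOC_Os04g53310 by 1.52 (limma adjusted p = 0.0016 and 0.005). The glucose phosphate translocator gene LOC_Os08g08840, which feeds plastids with sugar phosphate, stood at 843, 989 and 864 FPKM in TAC4L/TAC4-KO culms, against 271, 189.8 and 399 FPKM in TAC4-KO culms (1.71, SE 0.3, limma adjusted p = 0.0036). Of the 11 calls, 8 held under the 15 alternatives. SSI, a soluble starch synthase, rose by 1.28 (limma adjusted p = 0.025), a call lost without any single library except TAC4-KO replicate 3 (0.99 to 1.37). The branching enzyme gene LOC_Os04g33460 changed by 1.66 (limma adjusted p = 0.034), lost without TAC4-KO replicate 2 (1, at 5.15 FPKM in that library against 21.4 and 24.4 in the others) or any TAC4L/TAC4-KO library (1.54 to 1.83).

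**Figure D3:**
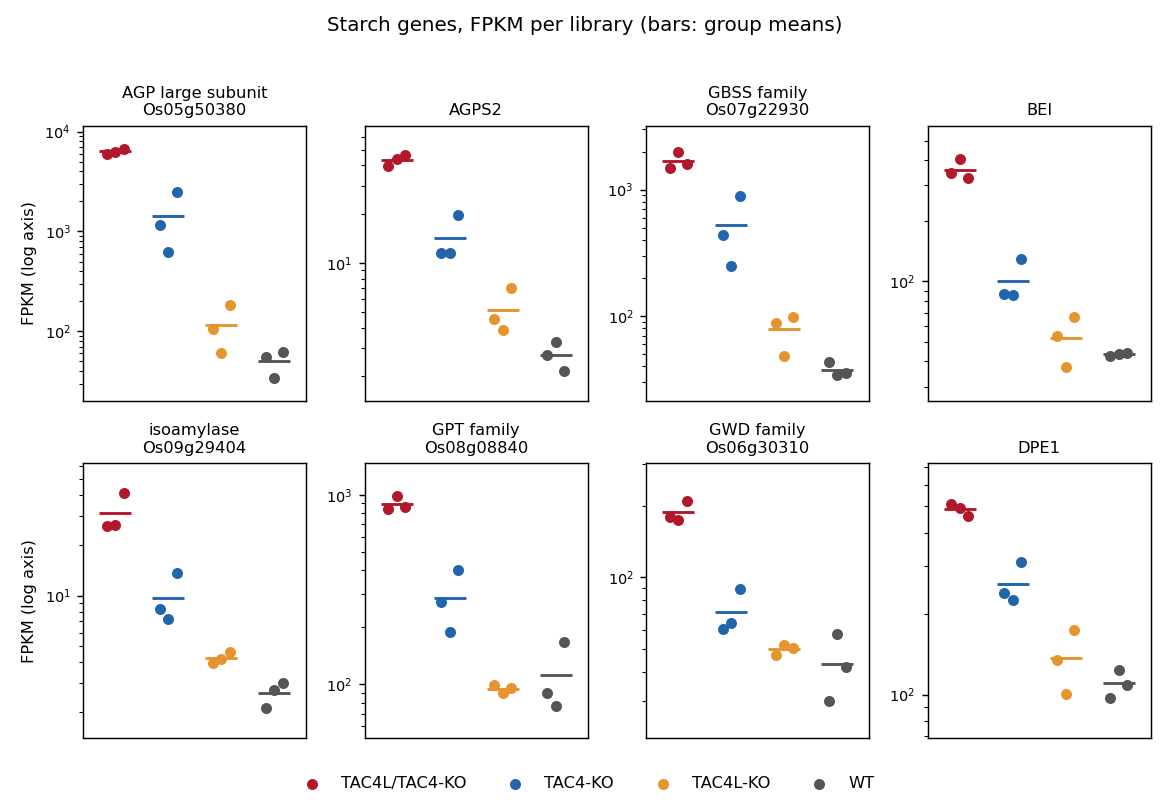
FPKM (log axis) of 8 starch genes in each library, with TAC4L/TAC4-KO left of TAC4-KO and TAC4L-KO left of WT, and bars at group means. The 3 TAC4L/TAC4-KO libraries lie above all TAC4-KO libraries in each panel, and the TAC4-KO libraries above the WT libraries.

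The same genes stood higher in TAC4-KO culms than in WT culms, a comparison that shares the TAC4-KO libraries. WT averaged 50.5 ± 14.5 FPKM of LOC_Os05g50380, 37.6 ± 5.07 of LOC_Os07g22930 and 43.4 ± 0.729 of BEI (SD, n = 3), and TAC4-KO lay 4.6, 3.59 and 1.17 above WT on the log2 scale. Of 5 tested genes that degrade starch, 3 were called higher (median 0.93, 1 called without TAC4-KO replicate 1), and the other 2, both alpha-amylases, had log2 changes below 0. AMY2A stood at 0.964, 0.619 and 0.929 FPKM in TAC4L/TAC4-KO culms, against 1.84, 3.98 and 0.851 FPKM in TAC4-KO culms, with overlap (-0.7, limma adjusted p = 0.36). AMY3D stood at 0, 0.0555 and 0.0226 FPKM in TAC4L/TAC4-KO culms, against 0.286, 5.53 and 0.0972 FPKM in TAC4-KO culms (-1.03, limma adjusted p = 0.4). The glucan water dikinase gene LOC_Os06g30310, which phosphorylates starch so that it can be attacked, stood at 179, 174 and 211 FPKM in TAC4L/TAC4-KO culms, against 60.8, 64.5 and 89.6 FPKM in TAC4-KO culms (log2 change 1.4, SE 0.23, limma adjusted p = 0.0026). DPE1 and DPE2, which rework the maltose and short glucans released, changed by 0.93 and 1.17 (limma adjusted p = 0.012 and 0.025). DPE1 lost its call without TAC4-KO replicate 1 (0.88), and DPE2 without any single library except TAC4-KO replicate 3 (0.97 to 1.21).

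Sucrose genes did not move as a block. Of 12 sucrose synthases, invertases and sucrose phosphate synthases, 3 were lower, against 10.1% lower over all tested genes. The list median was -0.02 (0.1 under median-of-ratios scaling, 0.16 under quantile normalization). The 3 were the weakly expressed sucrose synthases SUS5, SUS6 and SUS7, which split sucrose for use in the cell. SUS5 stood at 0.456, 0.947 and 0.796 FPKM in TAC4L/TAC4-KO culms, against 6.41, 2.16 and 3.02 FPKM in TAC4-KO culms (log2 change -1.4, SE 0.27, limma adjusted p = 0.0054). SUS6 changed by -1.14 and SUS7 by -0.95 (limma adjusted p = 0.01 and 0.028). SUS7 lost its call under quantile normalization (-0.8) and without TAC4-KO replicate 1 (-0.63) or TAC4L/TAC4-KO replicate 1 (-0.88) or 3 (-0.91). Of 6 sucrose transporters and SWEETs, SWEET13, a sucrose exporter, was lower at 16.7, 19.3 and 11.7 FPKM in TAC4L/TAC4-KO culms, against 78.6, 50.3 and 32.7 FPKM in TAC4-KO culms (-1.64, SE 0.43, limma adjusted p = 0.024). That call was lost without TAC4-KO replicate 1 (-1.33) or 2 (-1.64) or TAC4L/TAC4-KO replicate 1 (-1.69) or 3 (-1.45). The phloem markers summed to 274 to 534 FPKM in TAC4L/TAC4-KO culms and 459 to 891 FPKM in TAC4-KO culms, and their part in these results was not tested.

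Aux/IAA proteins repress auxin-responsive genes, are destroyed when auxin binds its receptor, and many of their own genes are induced by auxin. Of 20 tested Aux/IAA genes 11 were called, each of them lower, and 19 of the 20 had a log2 change below 0 (median -1). IAA12 stood at 1.86, 2.96 and 0.886 FPKM in TAC4L/TAC4-KO culms, against 13.8, 16.7 and 12 FPKM in TAC4-KO culms (log2 change -2.44, SE 0.32, limma adjusted p = 0.00095). IAA24 stood at 87.1, 74.9 and 29.3 FPKM in TAC4L/TAC4-KO culms, against 230.4, 363 and 322 FPKM in TAC4-KO culms (-2.35, SE 0.4, limma adjusted p = 0.0033). IAA23 stood at 5.2, 7.25 and 5.14 FPKM in TAC4L/TAC4-KO culms, against 32.5, 38.7 and 24.9 FPKM in TAC4-KO culms (-2.26, SE 0.23, limma adjusted p = 0.00026). In all 3 genes the groups were apart, with TAC4L/TAC4-KO replicate 3 the lowest library. IAA31 and IAA20 changed by -1.85 and -1.88 (limma adjusted p = 0.0012 and 0.0075), and these 5 calls held under the 15 alternatives. The count was 7 without TAC4-KO replicate 1 or 3, and 6 without TAC4-KO replicate 2 or TAC4L/TAC4-KO replicate 3. Of 6 tested GH3 genes, whose enzymes tie auxin to amino acids, limma called 0, with 1 lower at an unadjusted p under 0.05: GH3 LOC_Os01g12160 stood at 10.6, 5.46 and 7.76 FPKM in TAC4L/TAC4-KO culms, against 18.7, 19.9 and 15.1 FPKM in TAC4-KO culms (-1.11, limma adjusted p = 0.076).

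Auxin carriers changed in both directions. PIN1B, an efflux carrier that sets the direction of auxin flow, stood at 17.3, 18.8 and 10.7 FPKM in TAC4L/TAC4-KO culms, against 61.8, 92.9 and 59.4 FPKM in TAC4-KO culms (log2 change -2.13, SE 0.26, limma adjusted p = 0.0006). The influx carrier gene LOC_Os01g63770 stood at 119.8, 99 and 102 FPKM in TAC4L/TAC4-KO culms, against 213, 277 and 219.8 FPKM in TAC4-KO culms (-1.13, SE 0.2, limma adjusted p = 0.004). Both calls held under the 15 alternatives. PIN1A changed by -1.53 (limma adjusted p = 0.034; -1.01 without TAC4-KO replicate 2, which at 116 FPKM stood above 48.2 and 30.6 in the others). It was not called with either other scaling (-1.39 in each), nor without any single library except TAC4-KO replicate 3 (-1.01 to -1.63). PIN10A changed by 1.15 (limma adjusted p = 0.015), at 4.13, 7.49 and 5.83 FPKM in TAC4L/TAC4-KO culms, against 1.72, 1.51 and 2.98 FPKM in TAC4-KO culms, a call lost without TAC4-KO replicate 1 (1.08) or 2 (1.02) or TAC4L/TAC4-KO replicate 2 (0.98) or 3 (1.13). Of 6 tested genes of tiller angle and gravitropism 1 was lower, against 10.1% lower over all tested genes. It was the zinc finger gene LOC_Os03g13400, at 0.392, 0.308 and 0.298 FPKM in TAC4L/TAC4-KO culms, against 1.77, 1.68 and 1.08 FPKM in TAC4-KO culms (-0.9, SE 0.19, limma adjusted p = 0.0092). LAZY1, a gravitropism gene, was low in both groups, at 0.0406, 0.0496 and 0.121 FPKM in TAC4L/TAC4-KO culms and 1.02, 0.786 and 0.289 FPKM in TAC4-KO culms, against 6.07, 6.06 and 6.16 FPKM in WT culms (-0.64 between TAC4L/TAC4-KO and TAC4-KO, limma adjusted p = 0.08).

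**Figure D4:**
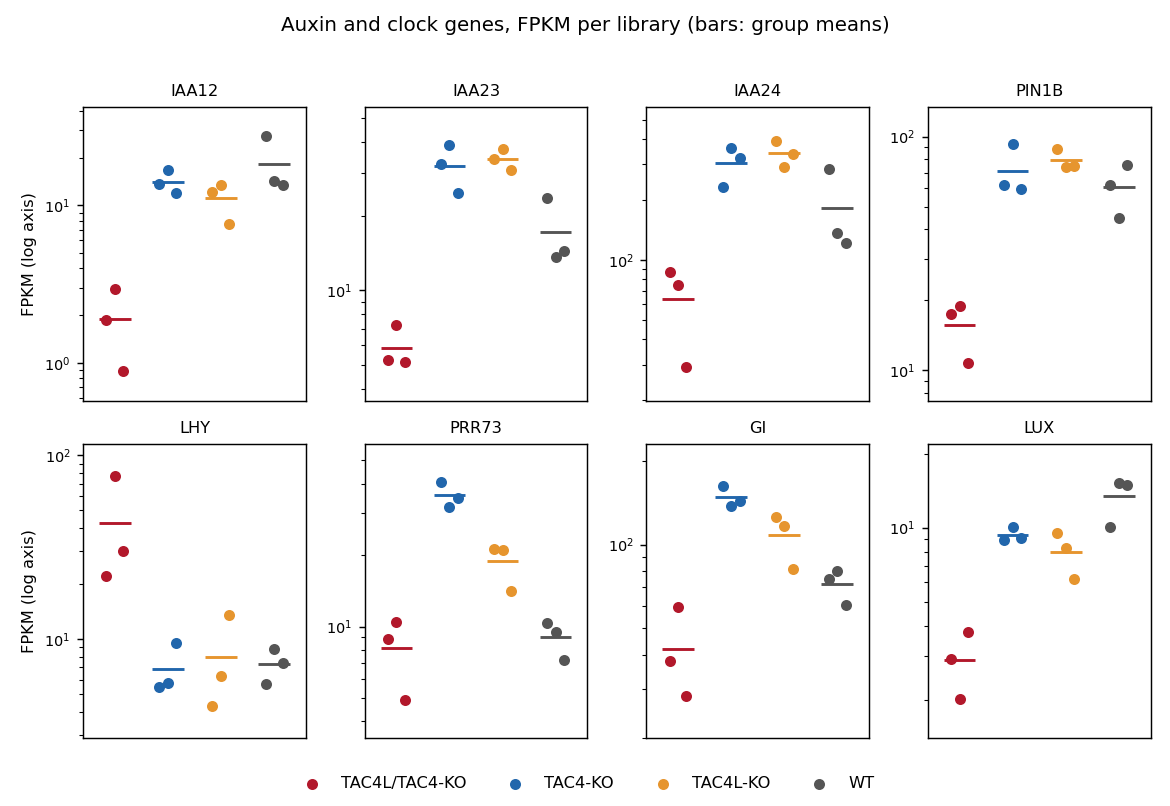
FPKM (log axis) of 4 auxin genes (upper row) and 4 clock genes (lower row) in each library, with TAC4L/TAC4-KO left of TAC4-KO and TAC4L-KO left of WT, and bars at group means. The TAC4L/TAC4-KO libraries lie below all TAC4-KO libraries in 7 panels and above them for LHY.

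Clock genes changed in both directions. LHY, the MYB factor that peaks at dawn, was higher at 22, 76.7 and 30.1 FPKM in TAC4L/TAC4-KO culms, against 5.44, 5.73 and 9.5 FPKM in TAC4-KO culms (log2 change 2.31, SE 0.44, limma adjusted p = 0.0057). Of the genes whose products act later in the day, 4 were lower. PRR73, a pseudo-response regulator of a family that represses LHY in Arabidopsis, stood at 8.9, 10.5 and 4.9 FPKM in TAC4L/TAC4-KO culms, against 40.6, 31.8 and 34.8 FPKM in TAC4-KO culms (-2.06, SE 0.26, limma adjusted p = 0.00066). GI, which links the clock to flowering, stood at 38, 59.5 and 28.3 FPKM in TAC4L/TAC4-KO culms, against 163, 138 and 144 FPKM in TAC4-KO culms (-1.86, SE 0.26, limma adjusted p = 0.0012). In both genes all TAC4L/TAC4-KO libraries lay well below the TAC4-KO libraries and the TAC4-KO values lay close together. LUX, of the evening complex, changed by -1.43 and PRR37 by -1.34 (limma adjusted p = 0.0019 and 0.0088). These 5 of 9 tested clock genes (1 higher and 4 lower) all held under the 15 alternatives.

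Gibberellin genes, which promote stem elongation, changed singly. Of 13 genes of synthesis and signalling, 2 were higher and 3 lower (median -0.19), against 4.88% higher and 10.1% lower over all tested genes. CPS1, the first committed step of synthesis, stood at 0.529, 1.7 and 0.264 FPKM in TAC4L/TAC4-KO culms, against 5.72, 5.81 and 4.26 FPKM in TAC4-KO culms (log2 change -1.84, SE 0.34, limma adjusted p = 0.0048). SD1, the oxidase behind the semidwarf varieties, stood at 5.1, 4.58 and 3.51 FPKM in TAC4L/TAC4-KO culms, against 8.1, 8.67 and 10.2 FPKM in TAC4-KO culms (-0.9, SE 0.24, limma adjusted p = 0.025). SD1 was not called after quantile normalization (-0.69), nor without any single library except TAC4L/TAC4-KO replicate 1 (-0.77 to -0.96). The F-box gene LOC_Os02g36974, of the receptor complex, stood at 60, 58.4 and 52.2 FPKM in TAC4L/TAC4-KO culms, against 103, 91 and 93.9 FPKM in TAC4-KO culms (-0.75, SE 0.14, limma adjusted p = 0.0057). Another gibberellin oxidase gene, LOC_Os03g63970, was higher at 3.22, 1.72 and 12.7 FPKM in TAC4L/TAC4-KO culms, against 0.394, 0.662 and 0.312 FPKM in TAC4-KO culms (1.9, SE 0.44, limma adjusted p = 0.014). Its level rests on TAC4L/TAC4-KO replicate 3 (1.23 without it), and the call was lost without TAC4-KO replicate 1 (1.87). None of the list was called higher without that TAC4-KO library, and 1 gene without TAC4-KO replicate 2 or TAC4L/TAC4-KO replicate 1 or 3. Of 6 oxidases that inactivate gibberellin, 1 was higher and 3 lower, with 1 lower without any one TAC4L/TAC4-KO library. LOC_Os05g43880 rose to 5.6, 7.83 and 8.78 FPKM in TAC4L/TAC4-KO culms, against 1.15, 1.59 and 0.935 FPKM in TAC4-KO culms (1.91, SE 0.27, limma adjusted p = 0.0013), and LOC_Os05g11810 fell to 10.2, 21.1 and 18.6 FPKM in TAC4L/TAC4-KO culms, against 33.4, 53 and 41.3 FPKM in TAC4-KO culms (-1.34, SE 0.28, limma adjusted p = 0.009). The oxidase genes LOC_Os04g44150 and LOC_Os05g06670 changed by -2.65 and -1.07 (limma adjusted p = 0.021 and 0.033). The first was not called without any single library except TAC4-KO replicate 1 (-2.16 to -2.8), and the second without TAC4-KO replicate 1 (-0.77) or any TAC4L/TAC4-KO library (-1.03 to -1.13).

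On the deposited values 7 brassinosteroid and strigolactone genes were called, each of them lower. Of 12 brassinosteroid genes 4 were lower (median -0.52), against 10.1% lower over all tested genes. That count was 2 without TAC4-KO replicate 1 or 3 or TAC4L/TAC4-KO replicate 3. D11, a cytochrome of brassinosteroid synthesis, stood at 1.71, 5.18 and 1.37 FPKM in TAC4L/TAC4-KO culms, against 11, 14.2 and 11.2 FPKM in TAC4-KO culms (log2 change -1.94, SE 0.37, limma adjusted p = 0.0058). BZR1, the transcription factor at the end of the pathway, changed by -1.16, BRD1, an enzyme of the last steps, by -1.18, and BRI1, the receptor, by -0.98 (limma adjusted p = 0.006, 0.022 and 0.027). BRI1 was not called with either other scaling (-0.85 and -0.86), nor without any single library except TAC4L/TAC4-KO replicate 2 (-0.83 to -1.06), and BRD1 without TAC4-KO replicate 1 or 3 or TAC4L/TAC4-KO replicate 1 or 3 (-0.95 to -1.23). Of 6 strigolactone and tillering genes 3 were lower (median -0.99), and all 3 held. On the deposited values none was higher, while 1 was with either other scaling and 1 without TAC4-KO replicate 2. D10 and D17 are the dioxygenases that cleave carotenoids into strigolactone precursors. D10 stood at 0.202, 0.354 and 0.0269 FPKM in TAC4L/TAC4-KO culms, against 2.65, 3.85 and 2.88 FPKM in TAC4-KO culms (-1.79, SE 0.38, limma adjusted p = 0.0092), and D17 changed by -1.17 (limma adjusted p = 0.0067). IPA1, a factor that limits tiller number and thickens the culm, stood at 0.831, 1.84 and 0.603 FPKM in TAC4L/TAC4-KO culms, against 4.73, 4.04 and 4.14 FPKM in TAC4-KO culms (-1.39, SE 0.25, limma adjusted p = 0.004).

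Stress hormone genes gave 2 calls, both lower. LIP9, a dehydrin of the dehydration response, stood at 34.5, 45.8 and 39.6 FPKM in TAC4L/TAC4-KO culms, against 338, 758 and 213 FPKM in TAC4-KO culms (log2 change -3.23, SE 0.56, limma adjusted p = 0.0033), and WT averaged 1258 ± 408 FPKM (SD, n = 3). The TAC4L/TAC4-KO and TAC4-KO groups were apart, and the TAC4-KO libraries varied more than the TAC4L/TAC4-KO libraries. BZIP23, an abscisic acid response factor, changed by -1.07 (limma adjusted p = 0.035). It was not called with either other scaling (-0.95 and -0.87), nor without any single library except TAC4L/TAC4-KO replicate 2 (-0.83 to -1.17). These were the 2 of 7 genes of that list called, against 10.1% lower over all tested genes. Of 10 JAZ repressors and 7 other jasmonate genes limma called 0, also with 0 at an unadjusted p under 0.05, and the list medians were -0.29 and -0.13 (the second 0.02 under median-of-ratios scaling). The smallest p belonged to TIFY3 (-0.33, limma adjusted p = 0.23) and OPR7 (-0.48, limma adjusted p = 0.19).

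In 3 lists of photosynthesis genes 5 genes were lower, against 10.1% lower over all tested genes, and none of those calls held under all alternatives. Of 14 light-harvesting genes 2 were lower (median -0.68), of 11 photosystem core and oxygen evolution genes 2 (median -0.57), and of 9 Rubisco and Calvin cycle genes 1 (median -0.49), while 13, 9 and 7 of them had a log2 change below 0. After quantile normalization 1, 3 and 1 were lower, and with median-of-ratios scaling 0, 0 and 1. CAB2R, a chlorophyll-binding antenna protein, stood at 682, 937 and 533 FPKM in TAC4L/TAC4-KO culms, against 1176, 1904 and 2758 FPKM in TAC4-KO culms (log2 change -1.39, SE 0.41, limma adjusted p = 0.04). CAB2R lost its call under median-of-ratios scaling (-1.25) and without TAC4-KO replicate 2 (-1.37) or 3 (-1.1) or TAC4L/TAC4-KO replicate 1 (-1.37) or 3 (-1.2). The antenna gene LOC_Os02g10390 changed by -1.38, the photosystem genes LOC_Os07g05480 and LOC_Os01g64960 by -1.29 and -1.18, and the Calvin cycle dehydrogenase gene LOC_Os03g03720 by -0.83 (limma adjusted p = 0.038, 0.034, 0.03 and 0.022). All 5 calls were lost without TAC4L/TAC4-KO replicate 1 or 3 or TAC4-KO replicate 2 or 3, where those 4 genes changed by -1.07 to -1.49, -1.11 to -1.27, -1 to -1.11 and -0.72 to -0.84. Summed over 25 genes of the light reactions that mark green tissue, 4 of them called lower, the level was 12129.9 to 14187 FPKM in TAC4L/TAC4-KO culms, 15820.2 to 20811 FPKM in TAC4-KO culms and 2954 to 6053 FPKM in WT culms. The part of green tissue in these results was not tested. In these families near-identical copies can share reads, so single members are uncertain. Of 13 genes of chlorophyll synthesis 1 was called higher, against 4.88% higher over all tested genes. This was PORA, the light-dependent reductase, at 218, 428 and 486 FPKM in TAC4L/TAC4-KO culms, against 163, 136 and 105 FPKM in TAC4-KO culms (1.42, SE 0.43, limma adjusted p = 0.045). With median-of-ratios scaling 3 genes of that list were called higher, and after quantile normalization 0. PORA changed by 1.32 after quantile normalization and was not called there, nor without any single library except TAC4L/TAC4-KO replicate 1 (1.2 to 1.57). Of 7 genes of chlorophyll breakdown NYC1, which starts it, was lower at 10.1, 5.97 and 4.31 FPKM in TAC4L/TAC4-KO culms, against 15.5, 15.1 and 15.7 FPKM in TAC4-KO culms (-1.15, SE 0.27, limma adjusted p = 0.015), lost without TAC4-KO replicate 1 (-1.14) or TAC4L/TAC4-KO replicate 3 (-0.9).

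Plasma membrane aquaporins, the water channels, were higher, with 4 of 5 tested genes called and a median of 0.87. The count was 2 under quantile normalization, where PIP1-1 and PIP2-1 were not called (0.68 and 0.59). PIP1-2 stood at 338, 254 and 372 FPKM in TAC4L/TAC4-KO culms, against 175, 147 and 121 FPKM in TAC4-KO culms (log2 change 1.11, SE 0.24, limma adjusted p = 0.0095), and WT averaged 602 ± 122 FPKM (SD, n = 3). TAC4L/TAC4-KO culms lay between TAC4-KO and WT culms for this gene. PIP2-2, PIP1-1 and PIP2-1 changed by 1.03, 0.87 and 0.67 (limma adjusted p = 0.013, 0.042 and 0.04). The count was 1 without TAC4-KO replicate 1 or TAC4L/TAC4-KO replicate 3 and 2 without TAC4-KO replicate 3 or TAC4L/TAC4-KO replicate 1 or 2, with log2 changes of 0.82 and 0.91 for PIP2-2, 0.77 to 0.95 for PIP1-1 and 0.58 to 0.73 for PIP2-1 where their calls were lost.

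Developmental regulators gave single calls, beside 4.88% higher and 10.1% lower over all tested genes. MADS16, a B-class floral organ factor, stood at 77.1, 111 and 102 FPKM in TAC4L/TAC4-KO culms, against 31.2, 31.7 and 36.9 FPKM in TAC4-KO culms (log2 change 1.5, SE 0.22, limma adjusted p = 0.0016). The 10 other floral markers averaged under 1 FPKM in both groups. Of 11 MADS-box genes 2 were higher and 1 lower: MADS50, a promoter of flowering, changed by 0.65 (limma adjusted p = 0.038, lost without any single library, 0.6 to 0.71) and MADS56 by -0.87 (limma adjusted p = 0.014, lost without TAC4-KO replicate 2, -0.78). Of 6 KNOX and BELL homeobox genes 2 were lower. OSH43, a KNOX factor of shoot meristems, stood at 0.0352, 0.161 and 0.14 FPKM in TAC4L/TAC4-KO culms, against 4.81, 3.44 and 1.91 FPKM in TAC4-KO culms (-1.93, SE 0.34, limma adjusted p = 0.0037). The BELL gene LOC_Os05g38120 changed by -1.18 (limma adjusted p = 0.04), and was not called with either other scaling (-1.04 and -1.06) or without any single library (-1.06 to -1.31). Of 5 cell cycle genes PCNA, the sliding clamp of DNA replication, was higher at 19, 19.8 and 19.8 FPKM in TAC4L/TAC4-KO culms, against 6.26, 11.6 and 10 FPKM in TAC4-KO culms (1.03, SE 0.31, limma adjusted p = 0.042), lost without any single library except TAC4-KO replicate 2 (0.8 to 1.1), and 2 genes of that list were called higher under either other scaling. Summed over 8 markers of dividing cells, the level was 99.8 to 113 FPKM in TAC4L/TAC4-KO culms and 73.3 to 99.3 FPKM in TAC4-KO culms, and its part was not tested. HD1, a photoperiod regulator and the 1 tested flowering signal, changed by 0.4 (limma adjusted p = 0.26). Of 5 genes often used as references, GAPDH was higher at 1093, 928 and 1606 FPKM in TAC4L/TAC4-KO culms, against 312, 325 and 526 FPKM in TAC4-KO culms (1.64, SE 0.29, limma adjusted p = 0.0038), and ACT1 changed by -0.15 (limma adjusted p = 0.76).

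Outside the lists, the most extreme calls were near on-off. LOC_Os09g36680 stood at 1117, 4993 and 3957 FPKM in TAC4L/TAC4-KO culms, against 0, 0.0542 and 0.686 FPKM in TAC4-KO culms (log2 change 11.18, SE 0.43, limma adjusted p = 2e-07). LOC_Os06g21369 stood at 149.6, 122 and 137 FPKM in TAC4L/TAC4-KO culms, against 0, 0.656 and 1.52 FPKM in TAC4-KO culms (6.41, SE 0.35, limma adjusted p = 3.7e-06). In the other direction, LOC_Os06g35970 stood at 0.0552, 0.726 and 2.23 FPKM in TAC4L/TAC4-KO culms, against 227, 83.8 and 74.6 FPKM in TAC4-KO culms (-5.97, SE 0.44, limma adjusted p = 2.2e-05). LOC_Os08g38170 stood at 1.54, 1.28 and 2.05 FPKM in TAC4L/TAC4-KO culms, against 192, 46.6 and 51.4 FPKM in TAC4-KO culms (-4.91, SE 0.47, limma adjusted p = 0.00016). The 2 higher loci were near 0 in TAC4L-KO and WT culms as well, at most 1.55 FPKM in any of those 6 libraries, and the 2 lower ones stood at 66.7 FPKM or more there. All 4 calls held under the 15 alternatives.

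Loss of TAC4L, as labelled, was also tested where TAC4 is kept, by comparing TAC4L-KO with WT culms, which share no library with the comparison above. The TAC4L transcript, below the level limit, did not separate these groups either (log2 change -0.16 without the filter, limma adjusted p = 0.48; exact two-sided permutation p = 0.4). Between TAC4L-KO and WT culms 1378 genes were called (7.18%), 706 higher (3.68%) and 672 lower (3.50%). Lower genes made up 48.8% of these calls, 64.7% under median-of-ratios scaling (480 higher, 881 lower) and 49.9% under quantile normalization. The count moved widely with single libraries: it was 2168, 139 and 135 without TAC4L-KO replicate 1, 2 and 3, and 892 and 364 without WT replicate 1 and 3. Across the 19184 genes the log2 changes of the 2 comparisons correlated at -0.1 (Pearson and Spearman alike), over genes that are not independent replicates. In all, 320 genes were called in both, which is 11.1% of the calls between TAC4L/TAC4-KO and TAC4-KO and 23.2% of those between TAC4L-KO and WT. Of these 240 changed in opposite directions, 212 of them lower in TAC4L/TAC4-KO and higher in TAC4L-KO, and 80 in the same direction.

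The difference between the 2 backgrounds was itself tested as an interaction, the change in TAC4L/TAC4-KO against TAC4-KO minus the change in TAC4L-KO against WT. It was called for 2894 genes (15.1%), 789 higher (4.11%) and 2105 lower (11.0%), and lower genes made up 72.7% of these calls on the deposited values, 50.2% under median-of-ratios scaling (1419 higher, 1429 lower) and 56.8% under quantile normalization (1192 higher, 1569 lower). The median interaction term of all tested genes was -0.19 on the deposited values and 0.04 under median-of-ratios scaling. The count was 1478 without TAC4L-KO replicate 2, 1577 without TAC4-KO replicate 1 and 1579 without TAC4L/TAC4-KO replicate 3. The interaction was also called for 1676 of the 2883 genes called in TAC4L/TAC4-KO against TAC4-KO, or 58.1%. It contains that change and shares its 6 libraries, so this overlap is no separate support. CESA4, CESA7 and CESA9 changed by 0.84, 0.36 and 0.74 in TAC4L-KO against WT culms, none of them called, and their interaction terms of -4.13, -4.14 and -4.08 were (limma adjusted p = 0.0013, 0.0013 and 0.0019). BC1 had an interaction term of -5.23 (limma adjusted p = 0.0022). IAA23 rose by 0.99 in TAC4L-KO culms (limma adjusted p = 0.032) and PRR73 by 0.97 (limma adjusted p = 0.045), whereas both fell in TAC4L/TAC4-KO culms. CESA2 and CESA3 rose by 0.79 and 1.2 in TAC4L-KO against WT culms (limma adjusted p = 0.029 and 0.012), with interaction terms of -1.21 and -1.43 (limma adjusted p = 0.01 and 0.0085). For single genes of TAC4L-KO against WT and of the interaction, the fits with libraries left out are not reported here.

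The interaction was called for 3 of the 20 starch synthesis genes, among them BEI (1.61, limma adjusted p = 0.0076), and not for LOC_Os05g50380 (1.28, limma adjusted p = 0.21) or LOC_Os07g22930 (0.88, limma adjusted p = 0.3). In TAC4L-KO against WT culms those genes changed by 1.1 and 0.98 (limma adjusted p = 0.15 and 0.13). For LUX and IAA31 the changes in TAC4L-KO culms were -0.68 and -0.7, and neither the change nor the interaction was called.

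**Figure D5:**
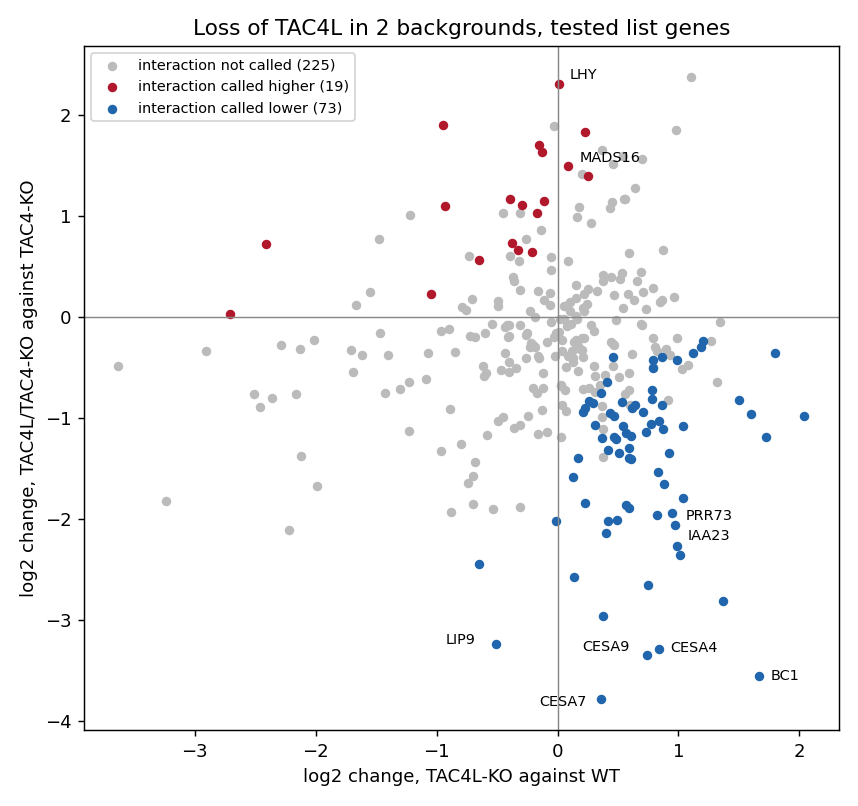
Log2 change of the 317 tested list genes in TAC4L-KO against WT culms (x axis) and in TAC4L/TAC4-KO against TAC4-KO culms (y axis), coloured by the call of the interaction, which was higher for 19, lower for 73 and not called for 225. The secondary wall cellulose synthases and BC1 lie at the lower right, above 0 on the x axis and under -3 on the y axis.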

How the data were processed

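The authors deposited 1 table of FPKM values, with 1 column per library and 55986 loci. Libraries were made from fragmented poly(A) RNA with random hexamer primers, per the labels' protocols, and the submitters' processing notes name HISAT2 without a version. What quantified the genes, on which build and annotation, and whether by strand, is not given in the sources used here, so overlapping antisense genes and near-identical copies cannot be told apart. Absolute depth is unknown. Relative depth was read from the spacing of low values and differed 2.58-fold among the 12 libraries. No 2 libraries were identical (66 pairs), and 0 columns lacked a sample.

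Genes averaging 1 FPKM or more over the 12 libraries were tested on log2(FPKM + 1), a scale that understates changes of low genes, with limma 3.58.1 in R 4.3.3 (trended prior, all 12 libraries in 1 fit, 8 residual degrees of freedom, Benjamini-Hochberg adjustment over all tested genes, called under 0.05). The pseudocount of 1 was the main one. The 4 contrasts were TAC4L/TAC4-KO against TAC4-KO, TAC4L-KO against WT, TAC4-KO against WT and the interaction. Data with normal noise were simulated for the first, with 19184 genes, of which 67 were changed 1.5-fold, 67 2-fold and 66 4-fold. Of these 1.49%, 34.3% and 78.8% were recovered, and 2 unchanged genes were called. Far fewer genes were changed than the 2883 called in the data, so these values do not give the recovery or false calls there.

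The members, lists and naming rule were chosen with earlier results of these data known. The rule named every tested cellulose synthase, brittle culm and wall regulator gene. It also named up to 4 called genes of each other list by smallest p (or its smallest p where none was called). It added the 12 highest and 12 lowest called list genes whose groups do not overlap, and 2 loci each way outside the lists. COMT1, 4CL4, SSI, IAA20, PRR37, LAZY1, ACT1, AMY2A and AMY3D were named after their values were seen. None of the locus identifiers matched the reference (assembly ASM3414082v1), so symbols were checked by chromosomal place: 273 of 411 were found there, 130 not found, and 2 are in the labels. The 15 alternatives were other pseudocounts (0.1, 0.5), filters (5 FPKM, none, 6 libraries), scalings, a fit of the 6 libraries, a replicate block and leaving out each library.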

Additional observations from a re-analysis of the deposited data

Results flagged for a closer look

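A difference between backgrounds is listed here where the change on losing TAC4L in TAC4-KO culms and the change on losing it in WT culms differed by the interaction test of limma. That held for 2894 genes. The 8 genes given here have the smallest interaction p among the genes named above whose symbol was placed in the reference. Many of those were named for their call in TAC4L/TAC4-KO against TAC4-KO, a change that the interaction contains, so large terms were favoured. Their interaction terms on the log2 scale were -3.25 for IAA23, -3.03 for PRR73, -4.14 for CESA7, -2.78 for 4CL1, -4.13 for CESA4, -2.53 for PIN1B, -4.08 for CESA9 and -2.43 for GI. These 8 terms are negative, and other genes had positive ones: of the 317 tested list genes the term was called higher for 19, among them BEI (1.61), and lower for 73, among them BC1 (-5.23). Their calls rest in part on the TAC4L-KO libraries, whose comparison with WT fell to 135 and 139 calls with 1 library left out.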

How the results depend on the processing

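Across the 15 alternatives the main count of 2883 genes stayed within 1.5 times except when a library was left out (1441 to 2372). Higher calls numbered 1461 after quantile normalization and 1453 after median-of-ratios scaling, where the deposited values gave 937, and 435 to 798 with 1 library left out. Lower calls ran from 976 to 1583 with 1 left out, and called list genes from 56 to 87. TAC4L-KO against WT gave 856 calls with no filter and 665 with a replicate block, and 135 to 2168 with 1 library left out. The interaction ran from 1478 to 3260 and TAC4-KO against WT, whose alternatives were added after seeing the data, from 4334 to 6330. Of the 100 called list genes 48 lost their call under at least 1 alternative, most often without TAC4L/TAC4-KO replicate 3 (44) or TAC4-KO replicate 1 (38), and 29 with no filter. The cause was not tested. Replicate numbers are shared between groups. Residuals of same-numbered libraries correlated at 0.0862, -0.212 and -0.0271, and those of differently numbered ones at -0.193 to 0.195. With 3 libraries per group these values can neither show nor exclude pairing by number. With the replicate block 2580 genes were called.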
